A study of Mus musculus with 12 samples.

Results

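The amacrine transcription factors described here are 9 genes, Tfap2a, Tfap2b, Tfap2c, Ebf1, Ebf3, Meis2, Bhlhe22, Lhx9 and Neurod2, found by an exact match of their names among the 55487 genes of the deposited gene table. All 9 were above the filter on low values that left 16471 genes for testing. RNA-seq had been made from whole mouse retina as 12 libraries, 2 for each of 6 groups. WT retinas were from C57BL/6J mice, shPax6 retinas were infected with AAV2.7m8 carrying a GFP-marked short hairpin RNA against Pax6 under the U6 promoter, and JNK3 KO retinas were from Jnk3-/- mice, which lack the neuronal stress kinase JNK3. Each kind of retina received into the vitreous 1 μL of PBS or 1 μL of PBS with 40 mM NMDA, a dose of 40 nmol of this agonist of a class of glutamate receptors. The infected mice were 2 months old, and no age was found for the other mice used for RNA-seq. RNA of more than 3 retinas, selected for poly(A), went into each library, and no library of retinas infected with a scrambled hairpin was analysed here, so infection and knockdown cannot be told apart in the shPax6 groups. The study describes replicates of the WT and shPax6 libraries as biological. Whether those of JNK3 KO came from separate animals is not given in the sources used here, so their spread may be technical. The p-values measure the spread between the 2 libraries within groups, pooled over the 6 groups, so the spread of JNK3 KO enters every test.

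Amacrine cells are the inhibitory interneurons of the inner retina, and use GABA or glycine as transmitter together with many peptides and other modulators. Their many types are specified by combinations of transcription factors that follow the general regulators Pax6, Ptf1a and Foxn4. TFAP2A, TFAP2B and TFAP2C are AP-2 factors, of which TFAP2A and TFAP2B act in horizontal and amacrine cell development and remain in most adult amacrine cells. EBF1 and EBF3 are early B-cell factors found in subsets of amacrine and retinal ganglion cells (RGCs), MEIS2 is a TALE homeodomain factor of GABAergic amacrine cells, LHX9 is a LIM homeodomain factor, and BHLHE22 and NEUROD2 are basic helix-loop-helix factors of amacrine subtypes. Several of these genes are not restricted to amacrine cells, Bhlhe22 being used in OFF cone bipolar cells and the Ebf genes in RGCs, so a level in whole retina sums over cell types.

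The WT NMDA libraries stood apart from all others. Their gene FPKM (fragments per length of transcript and library size) summed to 805627 and 820180, against 541210 to 576922 in the other 10, and mitochondrially encoded genes made up 3.02% and 2.98% of it against 5.91% to 10.2%. The log2 fold change after NMDA in WT was lower for longer genes (Spearman rho = -0.45 across 16443 genes, which are not independent replicates), where the rho was -0.11 in shPax6 and 0.20 in JNK3 KO. Length here counts the bases in exons of all annotated transcripts of a gene together, so it can exceed the length of the RNA present. For Lhx9 it was 9494 bases, where the transcript Lhx9-203 has 4551. The members' median was 6338 bases, against 3917 over all these genes. The WT response of each member is therefore also given after a trend on this length was removed from each library. Both WT NMDA libraries share these features, so no WT response can be had without them. FPKM hold no counts, so the depth behind each value is unknown. Within a group, the 2 libraries differed by a median of 0.11 to 0.25 in absolute log2 terms over all genes tested and, over the 9 members, 0.09 to 0.31 in 5 groups and 0.75 in shPax6 NMDA. Pax6 stood at 173.48 and 177.3 FPKM in WT PBS, above the 94.56 and 92.84 of shPax6 PBS. After NMDA the order was opposite, with 55.42 and 53.81 FPKM in WT below 67.52 and 58.73 in shPax6, so the knockdown label too was borne out under PBS only. Mapk10, which encodes JNK3, had 42.79 and 50.72 FPKM with PBS in WT and 9.47 and 8.75 in JNK3 KO PBS. After NMDA it had 8.98 and 6 FPKM in WT and 6.65 and 13.77 in JNK3 KO, which overlap, so Mapk10 checks the knockout label under PBS only.

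Under PBS in WT, the order of levels ran from Meis2 (mean 52.1 FPKM) and Tfap2b (38.6) through Tfap2a (10.8), Ebf3 (8.77), Bhlhe22 (7.23), Ebf1 (5.52), Tfap2c (4.43) and Neurod2 (3.71) to Lhx9 (2.94). The libraries of no neighbours in this order overlapped. Meis2 and Tfap2b thus stood well above the other members, at the 89.5th and 84.9th percentile of the genes tested, and Lhx9 was the lowest, at the 27.2nd. The pair Meis2 and Tfap2b kept the first and second place in all 6 groups with no overlap between them, whereas the lower places were exchanged. In shPax6 NMDA the 7 lowest members had means between 0.77 and 2.24 FPKM, and each of them overlapped with the next in order. In WT NMDA, Neurod2 came next after Tfap2a with 3.59 FPKM, overlapping with Tfap2a above it and with Bhlhe22 below it. The plot of levels by library shows these values.

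**Figure D1:**
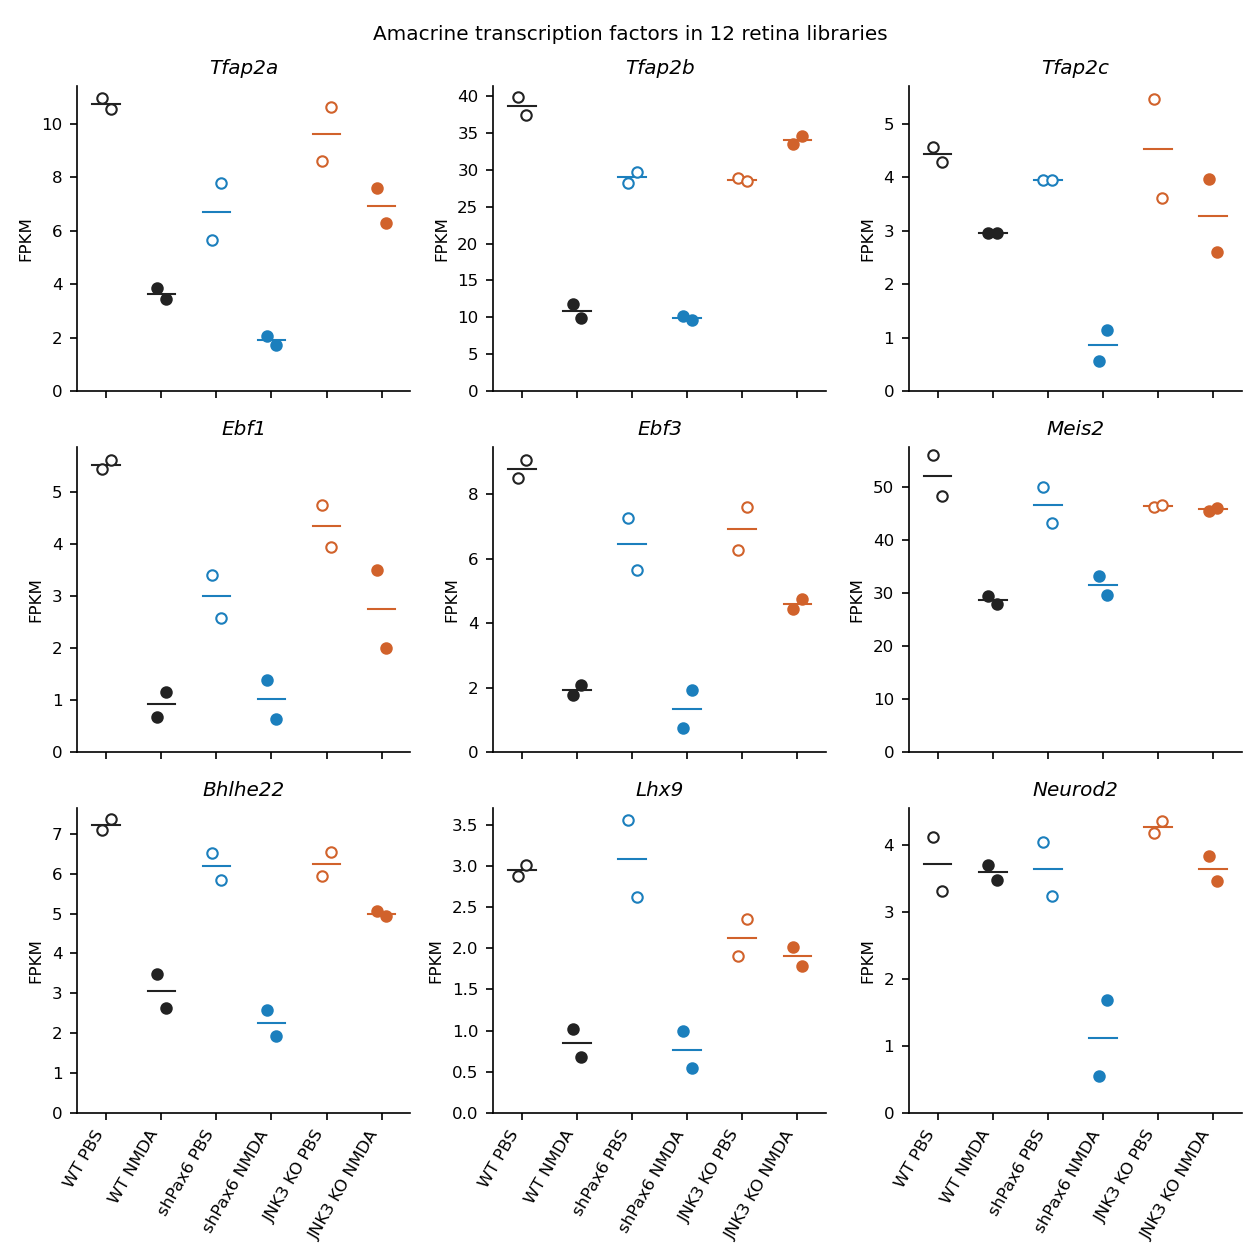
FPKM of the 9 members in each of 12 retina libraries (y axis, linear, from 0, a different range in each panel), by group (x axis). Open circles are PBS libraries, filled circles NMDA libraries and bars the mean of 2 libraries. Tfap2b sat at 9.85 and 11.83 FPKM in WT NMDA but at 33.51 and 34.57 in JNK3 KO NMDA, and Neurod2 was below 2 FPKM in the shPax6 NMDA libraries alone.

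Comparison of NMDA with PBS within each kind of retina asked how the expression of these factors stood after excitotoxic injury. After NMDA, 7 of 9 members fell in WT and all 9 fell in shPax6, whereas none passed the test in JNK3 KO (limma on log2(FPKM + 0.1), Benjamini-Hochberg adjusted p under 0.05 over all 16471 genes). No member rose in any of the 3. In bulk retina, fewer amacrine cells and less RNA of these genes per cell cannot be told apart. Beside the 7 of 9 in WT, 33.8% of all genes tested fell there, and beside the 9 of 9 in shPax6, 11% fell. In JNK3 KO, 10.4% of all genes were called in either direction, and 2 members, Tfap2a and Tfap2b, had an unadjusted p under 0.05. Median log2 fold changes of the members were -1.54 in WT, -1.76 in shPax6 and -0.31 in JNK3 KO, where the medians of all genes were -0.09, 0.10 and -0.01. Both NMDA libraries lay below both PBS libraries for 8 of 9 members in WT (44.3% of all genes), 9 of 9 in shPax6 (22%) and 6 of 9 in JNK3 KO (32.8%). With 2 libraries against 2, an exact permutation test of a single gene could not go below p = 0.333, and the calls rest on the spread shared across genes and 6 groups. With the spread estimated from the groups compared alone, the count stayed at 7 in WT, fell to 1 in shPax6 (Tfap2b) and became 1 in JNK3 KO (Tfap2b, higher).

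Tfap2b, the AP-2 gene with the highest level, lies on chromosome 1 (19208914 to 19238576, plus strand, GRCm38). It was at 39.87 and 37.43 FPKM with PBS in WT and at 11.83 and 9.85 in WT NMDA, at 28.22 and 29.76 in shPax6 PBS and at 10.23 and 9.69 in shPax6 NMDA, and at 28.84 and 28.44 in JNK3 KO PBS and at 33.51 and 34.57 in JNK3 KO NMDA. The PBS and NMDA libraries did not overlap in any of the 3, and their order was opposite in JNK3 KO, where both NMDA libraries were the higher. Tfap2b fell 3.55-fold in WT (log2 fold change -1.83 ± 0.10 SE, adjusted p = 5.09e-07) and 2.89-fold in shPax6 (-1.53 ± 0.10, adjusted p = 7.52e-06). In JNK3 KO the log2 fold change was 0.25 ± 0.10 and did not pass the test (adjusted p = 0.154, 95% interval 0.03 to 0.47). After removal of the length trend the WT value was -1.44 (adjusted p = 1.03e-05).

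Tfap2a, which shares most adult amacrine cells with Tfap2b, lies on chromosome 13 (40715302 to 40738376, minus strand). Its FPKM were 10.96 and 10.57 in WT PBS and 3.85 and 3.45 in WT NMDA, 5.64 and 7.78 in shPax6 PBS and 2.07 and 1.72 in shPax6 NMDA, and 8.63 and 10.65 in JNK3 KO PBS and 7.6 and 6.28 in JNK3 KO NMDA. NMDA libraries were below PBS libraries in all 3, by the smallest gap in JNK3 KO. The fall was 2.90-fold in WT (-1.54 ± 0.20, adjusted p = 0.000137) and 3.38-fold in shPax6 (-1.76 ± 0.20, adjusted p = 0.000234). In JNK3 KO it stood at -0.47 ± 0.20 (adjusted p = 0.194). After removal of the length trend the WT value was -1.37 (adjusted p = 0.000637).

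Tfap2c, an AP-2 gene of a smaller share of amacrine cells, lies on chromosome 2 (172549593 to 172558622, plus strand). It was at 4.57 and 4.29 FPKM in WT PBS against 2.95 and 2.95 in WT NMDA, at 3.94 and 3.95 in shPax6 PBS against 0.57 and 1.14 in shPax6 NMDA, and at 5.46 and 3.61 in JNK3 KO PBS against 3.96 and 2.6 in JNK3 KO NMDA. The shPax6 NMDA libraries were the lowest of the 12, and in JNK3 KO the groups overlapped. Tfap2c fell 4.44-fold in shPax6 (-2.15 ± 0.33, adjusted p = 0.00131). The WT change of -0.57 ± 0.33 did not pass the test (adjusted p = 0.170, interval -1.32 to 0.18) and was -0.66 (adjusted p = 0.145) after removal of the length trend, though with TPM in place of FPKM it was -1.14 and did (adjusted p = 0.0170). In JNK3 KO the value was -0.46 ± 0.33 (adjusted p = 0.464).

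Ebf1, a helix-loop-helix factor first described in B cell development, lies on chromosome 11 (44617317 to 45008091, plus strand). Its levels were 5.43 and 5.61 FPKM in WT PBS and 0.67 and 1.16 in WT NMDA, 3.41 and 2.58 in shPax6 PBS and 1.38 and 0.64 in shPax6 NMDA, and 4.75 and 3.94 in JNK3 KO PBS and 3.49 and 2 in JNK3 KO NMDA. It showed the lowest log2 fold change of the members in WT, a 5.70-fold fall (-2.51 ± 0.41, adjusted p = 0.000521), which was -1.76 (adjusted p = 0.00722) after removal of the length trend. In shPax6 it fell 2.93-fold (-1.55 ± 0.41, adjusted p = 0.0186). That call was lost without shPax6 PBS replicate 1, without shPax6 NMDA replicate 2 and with no filter on low values, and the largest adjusted p over the libraries left out was 0.0997. In JNK3 KO the value was -0.69 ± 0.41 (adjusted p = 0.349), with no overlap between groups.

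Ebf3, its paralog on chromosome 7 (137193673 to 137314445, minus strand), was at 8.49 and 9.05 FPKM with PBS in WT and at 1.78 and 2.09 in WT NMDA, at 7.26 and 5.66 in shPax6 PBS and at 0.76 and 1.92 in shPax6 NMDA, and at 6.27 and 7.6 in JNK3 KO PBS and at 4.45 and 4.74 in JNK3 KO NMDA. Groups did not overlap in any of the 3. The fall was 4.37-fold in WT (-2.13 ± 0.35, adjusted p = 0.000549) and 4.94-fold in shPax6 (-2.30 ± 0.35, adjusted p = 0.00112), with a log2 fold change of -1.69 without replicate 1 of shPax6 NMDA and -2.92 without replicate 2. After removal of the length trend the WT value was -1.42 (adjusted p = 0.0131). In JNK3 KO the log2 fold change was -0.58 ± 0.35 (adjusted p = 0.358).

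Meis2, on chromosome 2 (115863064 to 116065839, minus strand), was the member with the highest level and, among those called, the smallest fall in both WT and shPax6. It was at 56.09 and 48.18 FPKM with PBS in WT and at 29.39 and 27.82 in WT NMDA, at 49.97 and 43.22 in shPax6 PBS and at 33.23 and 29.66 in shPax6 NMDA, and at 46.25 and 46.51 in JNK3 KO PBS and at 45.52 and 45.95 in JNK3 KO NMDA. The 4 JNK3 KO libraries thus lay within 1 FPKM of each other. Meis2 fell 1.82-fold in WT (-0.86 ± 0.10, adjusted p = 6.06e-05) and 1.48-fold in shPax6 (-0.56 ± 0.10, adjusted p = 0.00264), and its value in JNK3 KO was -0.02 (adjusted p = 0.952, interval -0.24 to 0.20). The WT value moved with the correction for length. Counted over the exons of all its annotated transcripts together, Meis2 is the longest member, at 12043 bases. Its single transcripts above 1 FPKM were far shorter, the longest being Meis2-205 at 3718 bases. After removal of the length trend its WT value was 0.06 (adjusted p = 0.607), whereas the shPax6 value was -0.35 (adjusted p = 0.0209). The correction may thus be too strong for Meis2, which was not tested.

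Lhx9, on chromosome 1 (138825186 to 138848577, minus strand), was at 2.88 and 3.01 FPKM with PBS in WT and at 1.02 and 0.68 in WT NMDA, at 3.55 and 2.62 in shPax6 PBS and at 0.99 and 0.55 in shPax6 NMDA, and at 1.9 and 2.35 in JNK3 KO PBS and at 2.02 and 1.79 in JNK3 KO NMDA. All 4 NMDA libraries of WT and shPax6 were between 0.55 and 1.02 FPKM, and the JNK3 KO groups overlapped. It fell 3.26-fold in WT (-1.70 ± 0.33, adjusted p = 0.00164) and 3.74-fold in shPax6 (-1.90 ± 0.33, adjusted p = 0.00248). In JNK3 KO the value was -0.15 ± 0.33 (adjusted p = 0.862), with a wide interval of -0.89 to 0.60. The WT value after removal of the length trend was -0.98 (adjusted p = 0.0286).

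Bhlhe22, on chromosome 3 (18054174 to 18057517, plus strand), encodes a repressor in neuronal subtype specification. Its FPKM were 7.09 and 7.37 in WT PBS and 3.48 and 2.64 in WT NMDA, 6.52 and 5.85 in shPax6 PBS and 2.57 and 1.92 in shPax6 NMDA, and 5.93 and 6.53 in JNK3 KO PBS and 5.07 and 4.93 in JNK3 KO NMDA. The gene fell 2.34-fold in WT (-1.23 ± 0.19, adjusted p = 0.000466) and also in shPax6 (-1.43 ± 0.19, adjusted p = 0.000633). In JNK3 KO both NMDA libraries were below both PBS libraries, with a log2 fold change of -0.31 ± 0.19 that did not pass the test (adjusted p = 0.383). At 3344 bases Bhlhe22 is among the shortest members, and its WT value was -1.40 (adjusted p = 0.000436) after removal of the length trend.

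Neurod2, on chromosome 11 (98325415 to 98329648, minus strand), encodes a proneural activator of late differentiation. It was at 4.12 and 3.31 FPKM with PBS in WT and at 3.7 and 3.48 in WT NMDA, at 4.05 and 3.24 in shPax6 PBS and at 0.56 and 1.69 in shPax6 NMDA, and at 4.18 and 4.36 in JNK3 KO PBS and at 3.83 and 3.46 in JNK3 KO NMDA. Thus 10 libraries held Neurod2 between 3.24 and 4.36 FPKM and the 2 shPax6 NMDA libraries below 2. It fell 3.43-fold in shPax6 (-1.78 ± 0.39, adjusted p = 0.00860), by 1.06 without replicate 1 of shPax6 NMDA and by 2.50 without replicate 2. The call was lost without shPax6 PBS replicate 1 and with no filter on low values, with adjusted p of at most 0.201 over all alternatives. In WT the log2 fold change was -0.04 ± 0.39 (adjusted p = 0.952, interval -0.93 to 0.85), or -0.26 (adjusted p = 0.618) after removal of the length trend, and in JNK3 KO -0.22 ± 0.39 (adjusted p = 0.805).

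**Figure D2:**
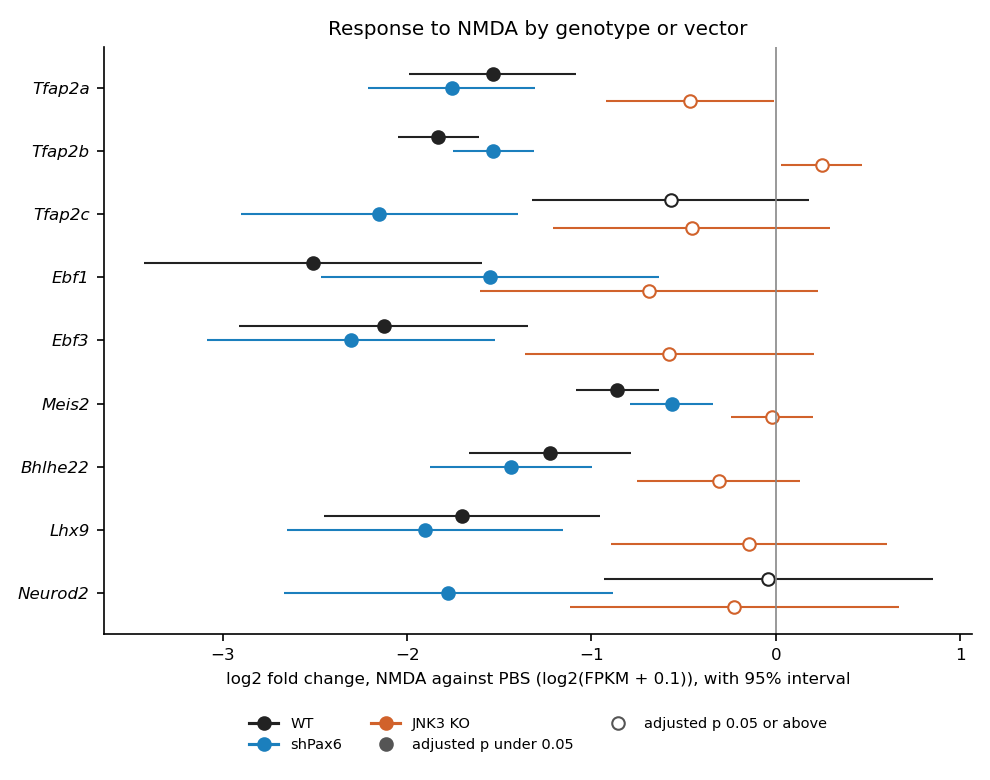
Log2 fold change of NMDA against PBS on the log2(FPKM + 0.1) scale (x axis) for the 9 members (y axis) in WT, shPax6 and JNK3 KO retinas, with 95% intervals from limma. Filled circles have an adjusted p under 0.05 over all genes tested and open circles do not: 7 are filled in WT, 9 in shPax6 and 0 in JNK3 KO.

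To see which sequences the members share near annotated starts, the 250 bases before RefSeq starts (GRCm38.p6) were read, which gave 9 windows for 7 members and none for Tfap2c and Bhlhe22. Measured against GENCODE, 7 of the 9 windows lay wholly inside the member's gene, downstream of its outermost start, and 5 overlapped annotated exons, by 3 to 250 bases. One of the Ebf1 windows was exonic throughout. The windows of 3 members are printed 5′ to 3′ on the gene's strand, because they come from members of both patterns of response: Tfap2b at chr1:19211804-19212053, which fell in WT and shPax6 and not in JNK3 KO, Ebf3 at chr7:137314446-137314695, with the same calls, and Neurod2 at chr11:98329646-98329895, which fell in shPax6 and was not called in WT or JNK3 KO. The Tfap2b window ends 3140 bases downstream of the gene's start and directly precedes Tfap2b-202, which held 3.73% of the WT PBS level, so it is not the region before Tfap2b-201, the isoform with the highest share. Capitals mark matches on either strand to the AP-2 motif GCCNNNGGC or to the EBF motif CCCNNGGGA.
Tfap2b: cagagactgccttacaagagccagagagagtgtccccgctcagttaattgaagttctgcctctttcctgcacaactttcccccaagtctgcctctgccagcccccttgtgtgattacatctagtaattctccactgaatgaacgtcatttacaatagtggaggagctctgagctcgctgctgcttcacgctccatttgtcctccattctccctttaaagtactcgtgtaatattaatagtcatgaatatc
Ebf3: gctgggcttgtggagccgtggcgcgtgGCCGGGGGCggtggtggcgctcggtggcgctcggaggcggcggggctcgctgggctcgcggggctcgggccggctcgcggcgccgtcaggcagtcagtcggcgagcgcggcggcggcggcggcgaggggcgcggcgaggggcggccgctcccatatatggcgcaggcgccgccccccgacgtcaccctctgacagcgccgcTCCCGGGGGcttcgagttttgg
Neurod2: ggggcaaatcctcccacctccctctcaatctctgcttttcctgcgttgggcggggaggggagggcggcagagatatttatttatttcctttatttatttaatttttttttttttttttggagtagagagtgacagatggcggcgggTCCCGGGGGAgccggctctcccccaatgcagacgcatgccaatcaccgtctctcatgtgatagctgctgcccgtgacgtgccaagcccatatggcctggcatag
The Tfap2b window held neither motif, the Ebf3 window held both and the Neurod2 window held overlapping EBF matches. The share of G and C was 46.4% for Tfap2b, 80% for Ebf3 and 52.8% for Neurod2, against a median of 52.4% over all windows. Of the 9 windows of members, 1 held the AP-2 motif and 2 the EBF motif, where 13.7% and 5.60% of all 32851 windows did. The AP-1 motif TGANTCA and the CRE motif TGACGTCA, which share the ends TGA and TCA and differ in the spacing between them, were in 0 of the 9 windows (6.75% and 1.55% of all). The MEIS motif TGACAG was in 3 (15.9% of all), the homeodomain core TAATTA in 1, that of Tfap2a (4.84%), and the E-box CANNTG in 4 (66.2%). These are matches of letters on both strands in short windows, and no binding data were used.

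The difference between responses was tested directly, as the log2 fold change in WT minus that in JNK3 KO or in shPax6. Both differences contain the same WT libraries, so their values stand side by side here without being set against each other. For WT minus JNK3 KO, 7 of 9 members had a lower value in WT (27.9% of all genes did), namely Tfap2b (-2.08 ± 0.14, adjusted p = 3.66e-06), Ebf1 (-1.82 ± 0.57, adjusted p = 0.0244), Lhx9 (-1.56 ± 0.47, adjusted p = 0.0200), Ebf3 (-1.55 ± 0.49, adjusted p = 0.0249), Tfap2a (-1.07 ± 0.28, adjusted p = 0.0113), Bhlhe22 (-0.92 ± 0.27, adjusted p = 0.0199) and Meis2 (-0.84 ± 0.14, adjusted p = 0.000878). Tfap2c (-0.11, interval -1.18 to 0.95) and Neurod2 (0.18, interval -1.08 to 1.44) did not pass the test, and both intervals include a value lower by 1 log2 unit in WT. The median over the members was -1.07, and over all genes -0.03.

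These 7 calls were not equally stable. Tfap2b was called in all 23 alternatives, between -2.67 and -1.62. Meis2 was called in 22, but removal of the length trend took its value to 0.25 (adjusted p = 0.162). That same correction also ended the calls of Ebf1 (-0.94, adjusted p = 0.236), Ebf3 (-0.72, adjusted p = 0.319) and Lhx9 (-0.70, adjusted p = 0.241), and kept those of Tfap2a (-0.88, adjusted p = 0.0358) and Bhlhe22 (-1.14, adjusted p = 0.0101), so that 3 of 9 members were then called. Without JNK3 KO NMDA replicate 1 the count was 2, and without WT PBS replicate 1, WT PBS replicate 2 or JNK3 KO PBS replicate 1 it was 3. With no filter on low values it was 2.

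For WT minus shPax6, 2 of 9 members had a higher value in WT, a share near the 18.3% of all genes that did. They were Tfap2c (1.58 ± 0.47, adjusted p = 0.0205) and Neurod2 (1.74 ± 0.56, adjusted p = 0.0282), the members that fell in shPax6 and were not called in WT. No member was called lower in this fit, where 5172 of the 16471 genes were. The other 7 members had values from -0.96 (Ebf1, interval -2.26 to 0.34) to 0.22 (Tfap2a, interval -0.42 to 0.87) and did not pass the test. Some of these passed under alternatives. With TPM, Tfap2b and Meis2 (both -0.82, adjusted p = 0.00131 and 0.00121) were called lower in WT and were the 2 members then called. Meis2 was called higher after removal of the length trend (0.41, adjusted p = 0.0336) and Bhlhe22 with quantile normalization (0.80, adjusted p = 0.0423). Of the libraries left out, WT NMDA replicate 1 gave a call of Tfap2b (-0.43), shPax6 NMDA replicate 2 of Ebf3 (0.79) and shPax6 PBS replicate 1 of Meis2 (-0.40). Precision differed among them, the interval of Tfap2b being -0.61 to 0.01 and that of Ebf3 -0.93 to 1.28. The Neurod2 difference was 1.02 without shPax6 NMDA replicate 1 and 2.46 without replicate 2. The call of Tfap2c was lost in 8 of 23 alternatives and that of Neurod2 in 10. Both were lost when any of the 4 WT libraries was left out, with TPM (1.12 and 1.27, adjusted p = 0.0816 and 0.0959) and with no filter. Tfap2c was also lost without shPax6 PBS replicate 2 or shPax6 NMDA replicate 1, and Neurod2 after removal of the length trend, with the spread of the compared groups alone, and without shPax6 PBS replicate 1 or JNK3 KO NMDA replicate 1. With TPM, which sets the summed level of every library equal, the median of all genes moved to -0.68 for the WT response, -0.82 for WT minus shPax6 and -0.64 for WT minus JNK3 KO, and that of the members for the WT response to -2.11.

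**Figure D3:**
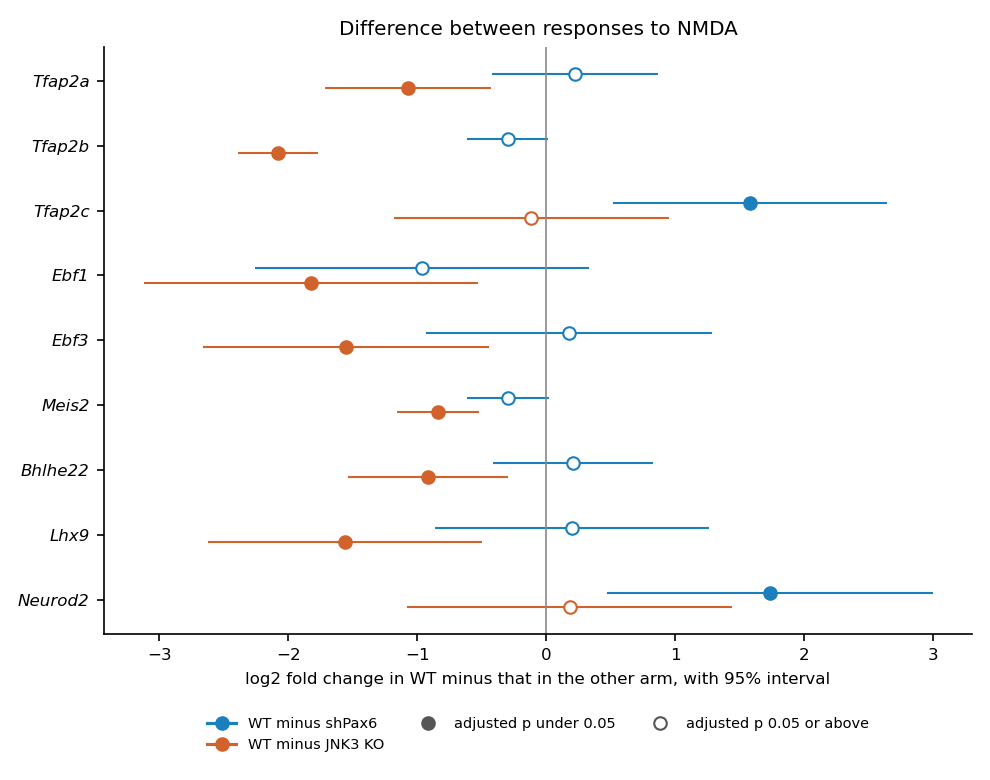
Log2 fold change after NMDA in WT minus that in shPax6 (blue) or JNK3 KO (orange) on the x axis, with 95% intervals from limma, for the 9 members (y axis). Filled circles have an adjusted p under 0.05: against JNK3 KO 7 are filled, all below 0, and against shPax6 2 are filled, Tfap2c at 1.58 and Neurod2 at 1.74.

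Under PBS alone the members differed less between kinds of retina. In shPax6 PBS against WT PBS, 2 of 9 members were lower (11.2% of all genes were), Tfap2b with 28.22 and 29.76 against 39.87 and 37.43 FPKM (-0.41 ± 0.10, adjusted p = 0.0199) and Tfap2a with 5.64 and 7.78 against 10.96 and 10.57 FPKM (-0.69 ± 0.20, adjusted p = 0.0464). Neither call was firm: that of Tfap2a was lost in 17 of 23 alternatives, among them the omission of each of 9 libraries, and that of Tfap2b in 5, without WT PBS replicate 1, WT PBS replicate 2 or shPax6 PBS replicate 1, with no filter and with the spread of the compared groups alone. The count of 2 was 0 or 1 in most alternatives. Ebf1, at 3.41 and 2.58 against 5.43 and 5.61 FPKM, had the lowest value of the members, -0.87 ± 0.41, and did not pass the test (adjusted p = 0.189). For Lhx9 (0.05), Neurod2 (-0.03), Meis2 (-0.16) and Tfap2c (-0.16) the adjusted p was 0.322 or above.

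In JNK3 KO PBS against WT PBS, 0 of 9 members were called by limma, where 1.51% of all genes were in either direction, and 1 had an unadjusted p under 0.05. That gene was Tfap2b, at 28.84 and 28.44 against 39.87 and 37.43 FPKM (-0.43 ± 0.10, adjusted p = 0.0716). It passed with quantile normalization and without either WT NMDA library, with adjusted p down to 0.0460. The value for Tfap2b was thus close to that in shPax6 PBS, and both comparisons use the same WT PBS libraries. The remaining values lay between -0.46 (Lhx9, interval -1.21 to 0.29) and 0.20 (Neurod2, interval -0.69 to 1.09).

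Ratios of members within a library do not depend on the library's scaling. They do depend on a library's trend with length where the members differ in length, and they were not corrected for it. Tfap2b over Tfap2a was 3.64 and 3.54 in WT PBS, 3.07 and 2.86 in WT NMDA and 4.41 and 5.50 in JNK3 KO NMDA, against 3.34 and 2.67 in JNK3 KO PBS, so the balance of the AP-2 genes moved towards Tfap2b in the JNK3 KO NMDA libraries and away from it in WT NMDA. The WT shift was smaller after removal of the length trend. The WT log2 fold changes of Tfap2b and Tfap2a were then -1.44 and -1.37, against -1.83 and -1.54 before. In shPax6 the ratio was 4.94 and 5.63 after NMDA, overlapping with the PBS libraries, of which the lower was at 3.83. Meis2 over Tfap2b rose from 1.41 and 1.29 in WT PBS to 2.48 and 2.82 in WT NMDA, stood at 1.77 and 1.45 in shPax6 PBS and 3.25 and 3.06 in shPax6 NMDA, and was lower after NMDA in JNK3 KO, 1.36 and 1.33 against 1.60 and 1.64. Neurod2 over Bhlhe22 was 0.58 and 0.45 in WT PBS and 1.06 and 1.32 in WT NMDA, and in shPax6 NMDA the libraries differed, at 0.22 and 0.88. Ebf3 over Ebf1 likewise split the shPax6 NMDA libraries, 0.55 against 3.00, while both WT PBS libraries were near 1.6 (1.56 and 1.61). These ratios were not tested.

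**Figure D4:**
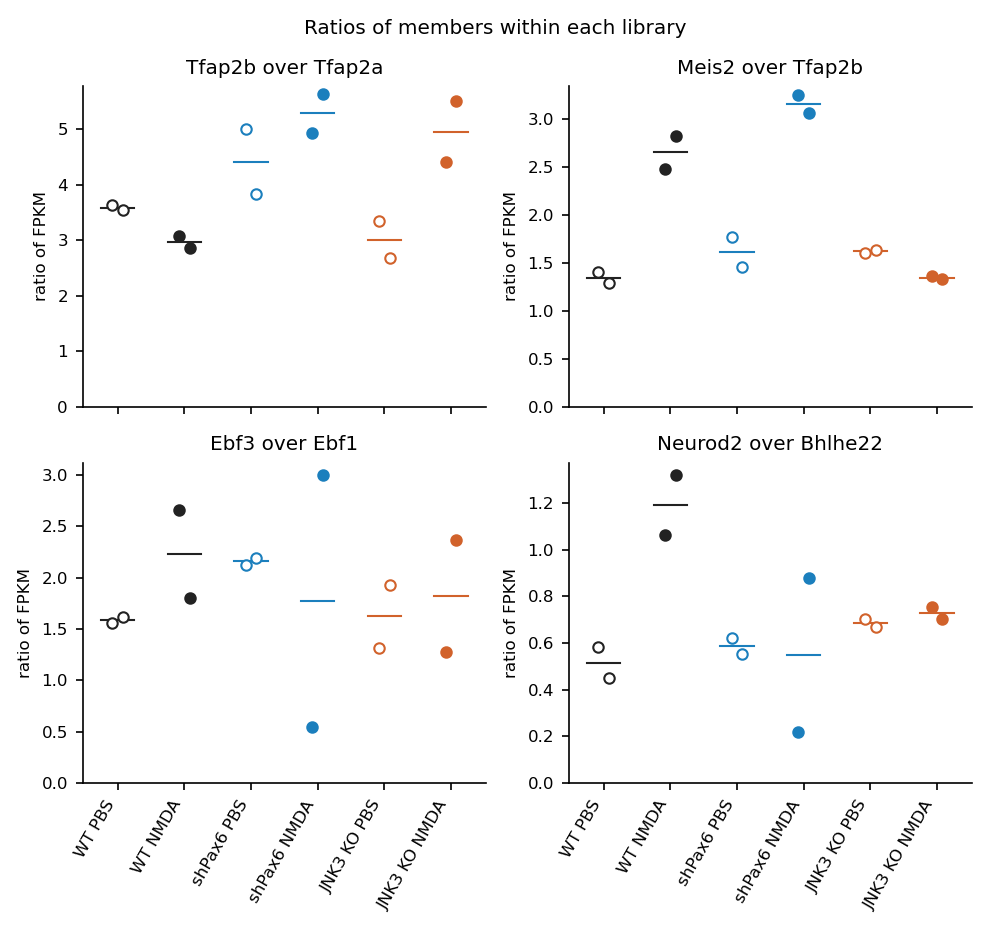
Ratios of FPKM between pairs of members within each of 12 libraries (y axis, linear, from 0), by group (x axis), with open circles for PBS, filled circles for NMDA and bars for the mean of 2 libraries. Tfap2b over Tfap2a was 4.41 and 5.50 in JNK3 KO NMDA and 3.07 and 2.86 in WT NMDA, and the shPax6 NMDA libraries lay far apart in Ebf3 over Ebf1 and in Neurod2 over Bhlhe22.

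The transcript table shows which isoforms carried these levels, as estimates that RSEM splits between overlapping models, so that shares of similar isoforms are uncertain. Transcript values were not tested. For Tfap2b, the transcript Tfap2b-201 (5863 bases) held 61.1% of the gene's FPKM in WT PBS, 80.8% in WT NMDA, 61.9% and 57.9% in shPax6 PBS and NMDA, and 63.6% and 73.7% in JNK3 KO PBS and NMDA. Tfap2b-204 was at 8.37 and 10.91 FPKM in WT PBS and 3.73 and 0.18 in WT NMDA, and at 10.9 and 7.24 in JNK3 KO PBS and 4.66 and 5.34 in JNK3 KO NMDA, so in JNK3 KO this shorter isoform was lower after NMDA while Tfap2b-201 was higher (16.94 and 19.48 under PBS, 24.71 and 25.47 after NMDA). For Ebf1 a single transcript, Ebf1-201, held 75.1% of the WT PBS level. Of the Meis2 transcripts, 10 of 19 in the table had a mean above 1 FPKM in some group. Meis2-205 was at 8.19 and 7.35 FPKM in WT PBS and listed at 0 in both WT NMDA libraries, while in JNK3 KO NMDA it was at 5.75 and 3.71. Meis2-203 was at 17.35 and 14.05 in WT PBS and 21.25 and 11.25 in WT NMDA, so its libraries overlapped where those of the gene did not. The Tfap2c level in WT NMDA was assigned mostly to Tfap2c-204 (2.95 and 2.15 FPKM), with 0.8 FPKM of replicate 2 in Tfap2c-206. Tfap2c-204 is annotated as a processed transcript and not as protein coding, and was listed at 0 in both WT PBS libraries. There the protein-coding Tfap2c-201 stood at 3.36 and 2.24, and it was listed at 0 in both WT NMDA libraries. Bhlhe22 and Neurod2 have 1 transcript each.

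Across the 12 libraries, log2(FPKM + 0.1) of the members correlated with each other at Pearson's r between 0.46 (Ebf1 with Neurod2) and 0.97 (Bhlhe22 with Lhx9), with a median of 0.86 over 36 pairs. The points share groups and library scaling, so these are descriptions of 6 groups more than of 12 independent samples. The genes most like each member among all 16471 included inhibitory neuron genes. For Tfap2b they were Gad2 (r = 0.987), a glutamate decarboxylase of GABA synthesis, and Kcnh7 (0.980), a potassium channel gene, and for Ebf3 Pcdh8 (0.986), a protocadherin, and Gad1 (0.983), the other glutamate decarboxylase. Neurod2 was closest to Gm14204 (0.983) and Sstr2 (0.978), a somatostatin receptor. Those of Lhx9 were Mgat4a (0.977) and the member Bhlhe22 (0.966), and those of Bhlhe22 Zmat4 (0.982) and Slitrk1 (0.981). Tfap2a was closest to Frmd5 and Pnmal1 (both 0.983), Tfap2c to Septin5 (0.965) and Gm26592 (0.963), Ebf1 to Phyhipl and Galntl6 (0.972 each), and Meis2 to Bcl7a (0.986) and Gfod1 (0.981).

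Other regulators of amacrine development and subtypes, a list of 37 genes of which 29 were tested, moved in part as the members did. In WT, 23 of the 29 fell and 0 rose (median -1.15), in shPax6 11 fell and 4 rose (median -0.23), and in JNK3 KO 3 fell and 7 rose (median 0.04). After removal of the length trend the counts in WT were 17 lower and 3 higher. Beside the uncorrected counts of this and the later lists, 5569 of all 16471 genes tested fell and 4286 rose in WT. In shPax6 1816 fell and 3151 rose, and in JNK3 KO 1005 fell and 713 rose. Pax6 itself, the master regulator of eye development, was at 55.42 and 53.81 FPKM in WT NMDA, 67.52 and 58.73 in shPax6 NMDA, and 186.72 and 191.41 in JNK3 KO PBS against 128.89 and 137.55 in JNK3 KO NMDA. It fell in all 3, by 1.68 in WT (adjusted p = 1.21e-07), 0.57 in shPax6 (adjusted p = 0.000316) and 0.51 in JNK3 KO (adjusted p = 0.00247) on the log2 scale. Barhl2, a homeobox gene of glycinergic and other amacrine cells, was not called in WT (-0.41, adjusted p = 0.148), where it stood at 5.56 and 5.49 FPKM under PBS and 3.45 and 4.95 after NMDA. It fell by 2.18 in shPax6, from 3.79 and 4.83 to 0.9 and 0.84 FPKM, and by 0.92 in JNK3 KO, from 5.53 and 6.93 to 3.12 and 3.31 FPKM (adjusted p = 0.0326, or 0.0647 after removal of the length trend). Neurod4, a proneural gene used in amacrine and bipolar genesis, rose in JNK3 KO by 1.02 (37.59 and 38.77 to 77.66 and 77.38 FPKM, adjusted p = 9.59e-05). In WT the same gene fell by 1.53, from 52.47 and 50.11 to 17.05 and 18.23 FPKM. Neurod4 was also lower in JNK3 KO PBS than in WT PBS, by 0.42 (adjusted p = 0.0333, or 0.0629 after removal of the length trend). Elavl4, an RNA-binding neuronal gene, fell by 2.53 in WT and 1.85 in shPax6, and Onecut1, better known in horizontal cells, fell by 2.65 in WT from a low level of 1.36 and 0.82 FPKM. Under PBS, Elavl3 was lower in shPax6 than in WT by 0.55 (adjusted p = 0.00830) and Pax6 by 0.90 (adjusted p = 6.04e-05).

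Of 13 genes listed as paralogs of the members, some of them distant relatives, 11 were tested. The list shares Ebf2, Bhlhe23, Meis1, Lhx2, Neurod1, Neurod4 and Neurod6 with the other regulators above. Of the 11 tested, 6 fell and 1 rose in WT, 2 fell and 1 rose in shPax6, and 0 fell and 3 rose in JNK3 KO. Those 3, Lhx2, Neurod1 and Neurod4, are also among the regulators that rose there. Tfap2d, an AP-2 gene known from RGCs, was at 2.7 and 1.31 FPKM with PBS in WT and at 0 and 0.03 in WT NMDA, and was called lower there (adjusted p = 0.000270) and in shPax6 (adjusted p = 0.00645). Tfap2e stayed between 0.31 and 1.75 FPKM and was called in none of the 7 comparisons. Meis1, the paralog of Meis2, was between 17.6 and 24.19 FPKM in all 12 libraries and was likewise never called, whereas Meis3 rose by 0.33 in WT (adjusted p = 0.0264), a direction that turned with TPM (-0.24, adjusted p = 0.0986). Ebf4 was called nowhere. Neurod1, expressed in photoreceptors as well as amacrine cells, fell by 0.72 in WT and rose by 0.48 in JNK3 KO (adjusted p = 1.09e-05 and 0.00218). The LIM homeodomain paralog Lhx2 fell in WT (-0.49) and rose in shPax6 (0.50) and JNK3 KO (0.56), with the WT call lost under quantile normalization and the shPax6 call under that and 75th-percentile scaling. Of the listed genes that share the Bhlhe name, Bhlhe40 and Bhlhe41 fell in WT (-0.87 and -1.22), and these are only distant relatives of Bhlhe22. Its closer relative Bhlhe23 was not called in any of the 3.

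Markers of amacrine cells that are not transcription factors (24 genes, all tested) fell for 15 genes in WT, 18 in shPax6 and 7 in JNK3 KO, with medians of -1.14, -1.44 and -0.41, and 3 of them rose in WT. Their summed level was 836.29 and 840.69 FPKM in WT PBS and 576.49 and 585.61 in WT NMDA, 547.01 to 571.94 in shPax6 PBS and 205.89 to 223.71 in shPax6 NMDA, and 803.35 to 821.43 in JNK3 KO PBS and 474.6 to 474.71 in JNK3 KO NMDA. In JNK3 KO these markers thus summed lower after NMDA, while the other regulators summed higher, at 784.64 to 788.02 against 700.68 to 707.58 FPKM. The direction of that sum depended on a few genes of high level. Neurod1 and Neurod4 were chosen for omission after the values were seen. Without them the sum was 484.93 to 485.26 FPKM after NMDA against 502.07 to 508.89 under PBS. That remainder includes Pax6, which went from 186.72 and 191.41 FPKM under PBS to 128.89 and 137.55 after NMDA. Of the 29 regulators tested, 7 rose in JNK3 KO (Lhx2, Neurod1, Neurod4, Nfix, Prox1, Sox2 and Tcf4) and 3 fell (Pax6, Barhl2 and Elavl3). The list is not restricted to amacrine cells, Neurod1 being expressed in photoreceptors too. RGC markers, of which some use Ebf genes, fell for 13 of 19 genes tested in JNK3 KO, with 13 in shPax6 and 15 in WT, where 1 rose, and their sum in JNK3 KO went from 849.58 to 885.3 FPKM under PBS to 282.45 to 284.15 after NMDA. In shPax6 PBS their sum was 325.64 to 329.49 FPKM, against 883.76 to 913.67 in WT PBS. No marker of either list was at 0 in both libraries of any group. The part of these cell types in the members' values was not tested.

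**Figure D5:**
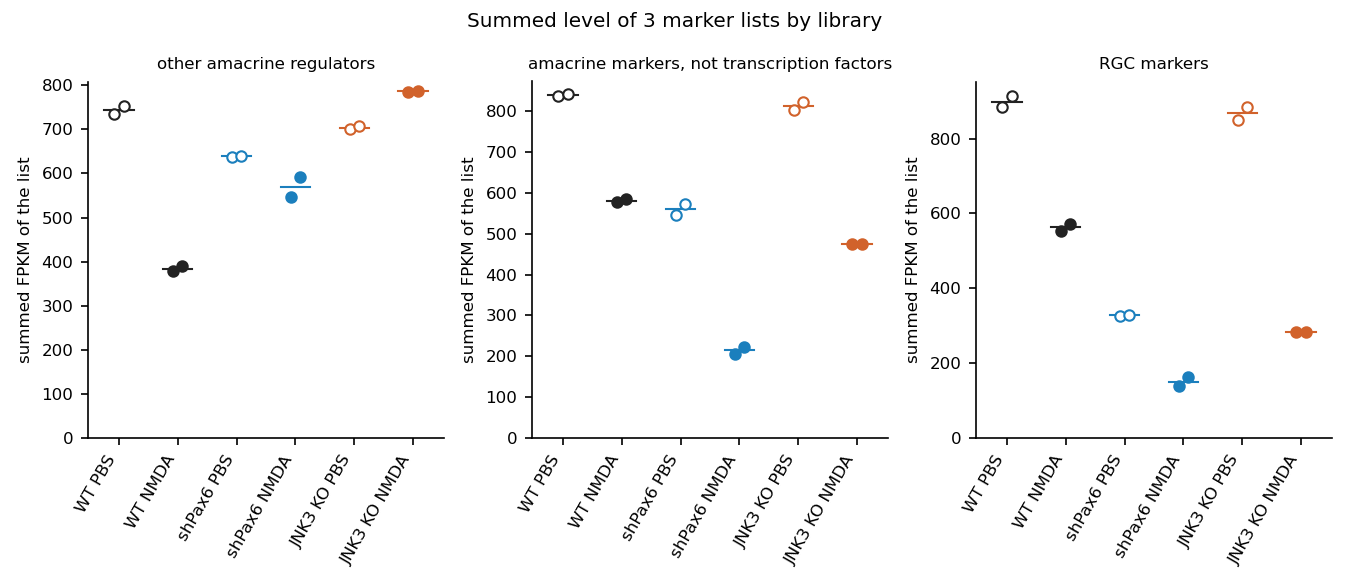
Summed FPKM of other amacrine regulators (37 genes), amacrine markers that are not transcription factors (24 genes) and RGC markers (20 genes) in each library (y axis, linear, from 0), by group (x axis), with open circles for PBS, filled circles for NMDA and bars for the mean of 2 libraries. After NMDA in JNK3 KO the first sum was higher (784.64 and 788.02) and the other sums were lower. Without Neurod1 and Neurod4 the first sum was lower than under PBS, a remainder that includes the fall of Pax6.

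Further lists moved with the groups. Their sums are raw FPKM, and FPKM of all genes summed to 805627 and 820180 in WT NMDA against 541210 to 576922 in the other libraries. A higher list sum in WT NMDA is therefore not by itself a higher share of the library. Microglia and macrophage markers summed to 1012.47 and 1030.13 FPKM in shPax6 NMDA, 282.37 to 309.88 in shPax6 PBS, 317.66 to 320.97 in WT NMDA and 173.76 to 222.23 in the other groups, with 10 of 14 genes higher after NMDA in shPax6 and 0 lower, 7 higher and 5 lower in WT, and 1 higher and 5 lower in JNK3 KO. Muller glia markers summed to 3753.17 to 3965.69 FPKM in shPax6 NMDA against 1773.59 to 2485.21 elsewhere, with 6 of 12 genes higher and 2 lower after NMDA. Horizontal cell markers, which matter because Tfap2a and Tfap2b are used in that lineage, fell for 4 of 7 genes tested in WT and in shPax6 and for 1 in JNK3 KO, and rose for 2, 1 and 1. Their sum was 306.88 to 317.15 FPKM in WT NMDA against 230.36 to 237.12 in WT PBS. Bipolar markers, relevant to Bhlhe22, summed to 1808.72 and 1826.94 FPKM in WT NMDA against 589.91 to 907.45 elsewhere, with 8 of 12 genes lower and 3 higher after NMDA in WT. Lens markers summed to 345.2 and 348.23 FPKM in WT NMDA against 102.93 to 226.49 elsewhere, and markers of cornea and surface epithelium, where AP-2 genes are also used, to at most 6.43 in any library. The 12 rod markers summed to 24411.9 FPKM or more in each library. They fell for 10 genes in shPax6, 9 in JNK3 KO and 3 in WT and rose for 1, 1 and 7, and all 12 were higher in shPax6 PBS than in WT PBS. Of the remaining lists, cone markers (10 genes) fell for 4 in WT, 9 in shPax6 and 7 in JNK3 KO and rose for 3, 1 and 0. Pericyte and smooth muscle markers (8 tested) rose for 2 in WT, 4 in shPax6 and 0 in JNK3 KO and fell for 1 in each. Those of RPE and iris or ciliary body (6 tested) fell for 2, 4 and 0 and rose for 1, 1 and 0. Their part in the members' values was not tested either.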

How the data were processed

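Total retinal RNA was reverse transcribed with an oligo-dT primer and made into TruSeq mRNA libraries for paired-end sequencing. The authors deposited FPKM for genes and for transcripts. Their processing notes name GRCm38.p6, STAR 2.7.1a, RSEM 1.3.3, edgeR 3.36.0 and R 4.1.0. No columns of comparisons by the authors were used. Gene positions were taken from GENCODE M21 (GRCm38), which matched 55141 of 55487 gene IDs. Tests used log2(FPKM + 0.1), a scale that understates changes of low genes. Genes with a mean above 1 FPKM in at least 1 of 6 groups were fitted with limma 3.58.1 (group means, 6 residual degrees of freedom, eBayes with intensity trend) in R 4.3.3, with calls where the Benjamini-Hochberg adjusted p was under 0.05. The script was tested on simulated data. Intervals are 95%. The 7 comparisons were the NMDA response in each of 3 kinds of retina, 2 comparisons under PBS and 2 differences between responses. The members and the 14 lists were chosen with earlier results of these data known. Named beside the members were the 2 genes most like each, Pax6, and the 2 called regulators with the largest change in each of the NMDA and PBS comparisons. The listed paralogs above 1 FPKM and transcripts above 1 FPKM were named too. Of 12 alternatives beside each library left out, the values stand in the closing section. Any 2 of the 12 libraries differed in value at 20020 genes or more.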

Additional observations from a re-analysis of the deposited data

Results flagged for a closer look

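For 9 tests of a difference between responses the members' change after NMDA differed between kinds of retina at an adjusted p under 0.05 (limma, an interaction of treatment and kind of retina in 1 fit). Of all 16471 genes, 4597 were called lower and 3875 higher in WT minus JNK3 KO, and 5172 lower and 3007 higher in WT minus shPax6. Taken over both comparisons and both directions, calls were about as frequent among all genes as among the members. In WT minus JNK3 KO the differences in log2 fold change were -2.08 for Tfap2b, -1.82 for Ebf1, -1.56 for Lhx9, -1.55 for Ebf3, -1.07 for Tfap2a, -0.92 for Bhlhe22 and -0.84 for Meis2. In WT minus shPax6 they were 1.58 for Tfap2c and 1.74 for Neurod2. All of them use the WT NMDA libraries, whose summed FPKM and dependence on length set them apart, and the length correction ended 4 of the 7 calls against JNK3 KO and that of Neurod2 against shPax6. The Neurod2 and Tfap2c differences rest on 2 shPax6 NMDA libraries at 0.56 and 1.69 and at 0.57 and 1.14 FPKM. No group has the 4 or more libraries that a search for single outlying libraries would need.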

How the results depend on the processing

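The fall of 7 members in WT was called in all alternatives for Tfap2a, Tfap2b, Ebf1, Ebf3, Bhlhe22 and Lhx9, and in all but the length correction for Meis2. With 2 libraries a group and no read counts, small differences of the lower members could not be resolved. The cause of the changes that follow was not tested. With the spread of the compared groups alone, members called were 1 (NMDA response in shPax6), 1 (NMDA response in JNK3 KO), 0 (shPax6 PBS against WT PBS) and 1 (WT minus shPax6). With no filter on low values they were 0 in shPax6 PBS against WT PBS, 0 in WT minus shPax6 and 2 in WT minus JNK3 KO. In shPax6 PBS against WT PBS the count was 1 with TPM, with 75th-percentile scaling, with quantile normalization, after removal of the length trend, with no intensity trend and with a replicate block, and 0 at an unadjusted p under 0.05 with an absolute log2 fold change above 1. Quantile normalization gave 1 in JNK3 KO PBS against WT PBS and 4 in WT minus JNK3 KO, where the length correction gave 3. Over the libraries left out in turn, which assumes that a lone library varies like the other groups, the counts stayed at 7 in WT and 0 in JNK3 KO and ran from 7 to 9 in shPax6, from 0 to 2 in shPax6 PBS against WT PBS, from 0 to 1 in JNK3 KO PBS against WT PBS, from 0 to 3 in WT minus shPax6 and from 2 to 7 in WT minus JNK3 KO.

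Some directions turned. Removal of the length trend gave Meis2 0.0602 in WT, 0.0106 in JNK3 KO PBS against WT PBS, 0.41 in WT minus shPax6 and 0.25 in WT minus JNK3 KO, Tfap2c -0.0086 in JNK3 KO PBS against WT PBS, Tfap2b 0.0052 in WT minus shPax6 and Neurod2 -0.10 in WT minus JNK3 KO. Quantile normalization gave Neurod2 0.39 in WT and 0.18 in shPax6 PBS against WT PBS, Meis2 0.0178 in JNK3 KO, Tfap2c 0.0304 in shPax6 PBS against WT PBS and 0.24 in WT minus JNK3 KO, and Tfap2b 0.0022 in WT minus shPax6. TPM gave Tfap2c -0.0595 in JNK3 KO PBS against WT PBS (75th-percentile scaling -0.0493), Neurod2 -0.40 in WT minus JNK3 KO and, in WT minus shPax6, Tfap2a -0.28, Ebf3 -0.31, Bhlhe22 -0.30 and Lhx9 -0.27. A pseudocount of 1 gave Ebf3 -0.0264 in WT minus shPax6. Over the libraries left out, Neurod2 ran from -0.19 to 0.11 in WT and from -0.18 to 0.13 in shPax6 PBS against WT PBS, Lhx9 from -0.29 to 0.0012 in JNK3 KO, from -0.16 to 0.26 in shPax6 PBS against WT PBS and from -0.17 to 0.57 in WT minus shPax6, Tfap2c from -0.29 to 0.30 in JNK3 KO PBS against WT PBS and from -0.41 to 0.18 in WT minus JNK3 KO, and, in WT minus shPax6, Tfap2a from -0.0063 to 0.45 and Ebf3 from -0.44 to 0.79.

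Same-numbered libraries of different groups share only a number: their deviations from group means correlated between -0.10 and 0.09 over 15 pairs of groups, none above 0.1. With the replicate block, members called were 7 in WT, 9 in shPax6, 0 in JNK3 KO, 1 in shPax6 PBS against WT PBS, 0 in JNK3 KO PBS against WT PBS, 2 in WT minus shPax6 and 7 in WT minus JNK3 KO. Among all genes, some alternatives moved the count of calls by over 1.5 times or the split of higher and lower calls by over 10 percentage points. With TPM the calls were 2248 higher and 8528 lower in WT (4286 and 5569 as reported), 1524 and 7936 in WT minus shPax6 (3007 and 5172), 2090 and 7080 in WT minus JNK3 KO (3875 and 4597) and 86 and 68 in JNK3 KO PBS against WT PBS (182 and 67). In shPax6, where 3151 were higher and 1816 lower, they were 2371 and 2507 with 75th-percentile scaling, 2158 and 2742 with quantile normalization, 1795 and 1150 with no filter and 675 and 301 with the spread of the compared groups alone. In shPax6 PBS against WT PBS (883 and 1841) they were 1134 and 1535 with quantile normalization, 398 and 989 with no filter, 286 and 601 with the spread of the compared groups alone, and 410 and 891 or 400 and 831 without WT PBS replicate 1 or 2. In JNK3 KO (713 and 1005) they were 336 and 440 with no filter and fell to between 169 and 267 higher when any JNK3 KO library was left out. In JNK3 KO PBS against WT PBS they were 95 and 84 with 75th-percentile scaling, 43 and 91 with quantile normalization, 43 and 20 after removal of the length trend, 42 and 56 with no filter, 8 and 4 with the spread of the compared groups alone, 20 and 15 with no intensity trend, 119 and 34 with the block, and, over the libraries left out, from 13 and 10 to 288 and 119.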
